A study of Mus musculus with 6 samples.

Results

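The genes described here encode 10 surface molecules of T cells, namely the coreceptors Cd4, Cd8a and Cd8b1, the costimulatory receptors Cd28, Icos and Cd27, and the adhesion and signal-tuning molecules Cd2, Cd5, Cd6 and Cd44. They were taken by symbol from the annotation of the Affymetrix array, which holds all 10 among 18193 genes and gives them 21 of 45037 probe sets. RNA was measured on 1 array per sample in LSK cells, a gate on bone marrow (no lineage markers, cKit and Sca1 present) that holds blood stem cells and their multipotent progeny. The 3 N1IC mice were genotyped as lox-stop-lox N1-IC Mx1-cre+, which gives the active intracellular part of Notch1 where Cre has acted. The 3 WT mice were genotyped as Mx1-cre+. All 6 mice were 5 weeks old and carried Mx1-cre, a Cre driven by an interferon-responsive promoter that is active in many blood and other cells. All had received polyIC, which induces it, in 3 injections of 20 mcg per g of body weight from 21 days of age, and were analysed 2 weeks after the last. The treatment text of the labels names a floxed Ncstn allele with and without Mx1-cre instead. The groups here follow the genotype labels. The labels give neither the share of cells in which Cre had acted, nor the antibodies of the lineage stain, nor the strain background of the mice.

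T cell coreceptors bind MHC molecules beside the T cell receptor, CD4 to class II and the CD8 alpha and beta chains to class I, and bring the kinase LCK to the receptor. CD28 gives the classical costimulatory signal when it meets CD80 or CD86, and CTLA4 competes for the same ligands. In the thymus the earliest T progenitors carry CD44 and little CD4 or CD8, and CD4 and CD8 appear together after the beta chain of the receptor has been rearranged. Notch1 signalling commits progenitors to this path.

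Values are given as log2 intensity of the probe set with the highest mean of each gene, and log2 fold changes are N1IC minus WT. A gene was called when its adjusted p by limma, with Benjamini-Hochberg adjustment over all 18193 genes, was below 0.05. The check genes followed the genotype labels, with Hes1, a direct Notch target, between 11.71 and 12.01 on N1IC arrays and between 7.88 and 8.66 on WT arrays. Dtx1, the Deltex protein of Notch signalling, lay between 10.49 and 10.98 on N1IC arrays and between 4.04 and 4.71 on WT arrays. Kit, which defines the gate, lay between 11.45 and 11.57 on N1IC arrays and between 11.58 and 11.94 on WT arrays and was not called. The other 3 measured markers of LSK cells and their subsets, Cd34, Flt3 and Slamf1, were called lower in N1IC. Of these, 1 to 3 were called with 1 array left out (1 without WT replicate 3), and 1 with the replicate block or with sex as a covariate. The median intensity of an array ranged over 88.99 to 92.45, and precision is limited by having 3 arrays a group. In several of these genes WT replicate 1 differed from WT replicates 2 and 3, as given beside the results. All N1IC mice were female, while WT replicates 1 and 3 were male and WT replicate 2 was female, so sex and group largely overlap.

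Of the 10 genes, 3 rose in N1IC, Cd5, Cd28 and Cd6, and 1 fell, Cd44. The other 6 were not called. Over all genes, 11.8% were called, 3.47% higher and 8.31% lower. The median log2 fold change was 0.63 over the 10 genes and -0.01 over all 18193 genes, and 7 of the 10 had a positive value. The N1IC and WT arrays did not overlap for 5 of the 10 genes (3 higher and 2 lower in N1IC), while this held for 32.8% of all genes (13.1% higher and 19.7% lower). Counted by probe set, 4 of 21 were called higher and none was called lower by limma over all 45037 probe sets, where 7.92% were called, 3.16% higher and 4.76% lower. At an unadjusted p below 0.05 by limma, 2 of the 21 were lower, the brightest probe set of Cd4 and that of Cd44. The 4 called higher also passed this threshold, as did the dimmest Cd44 probe set, which was higher in N1IC. The share of all probe sets that pass it was not counted, so these numbers have no background to be set against.

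**Figure D1:**
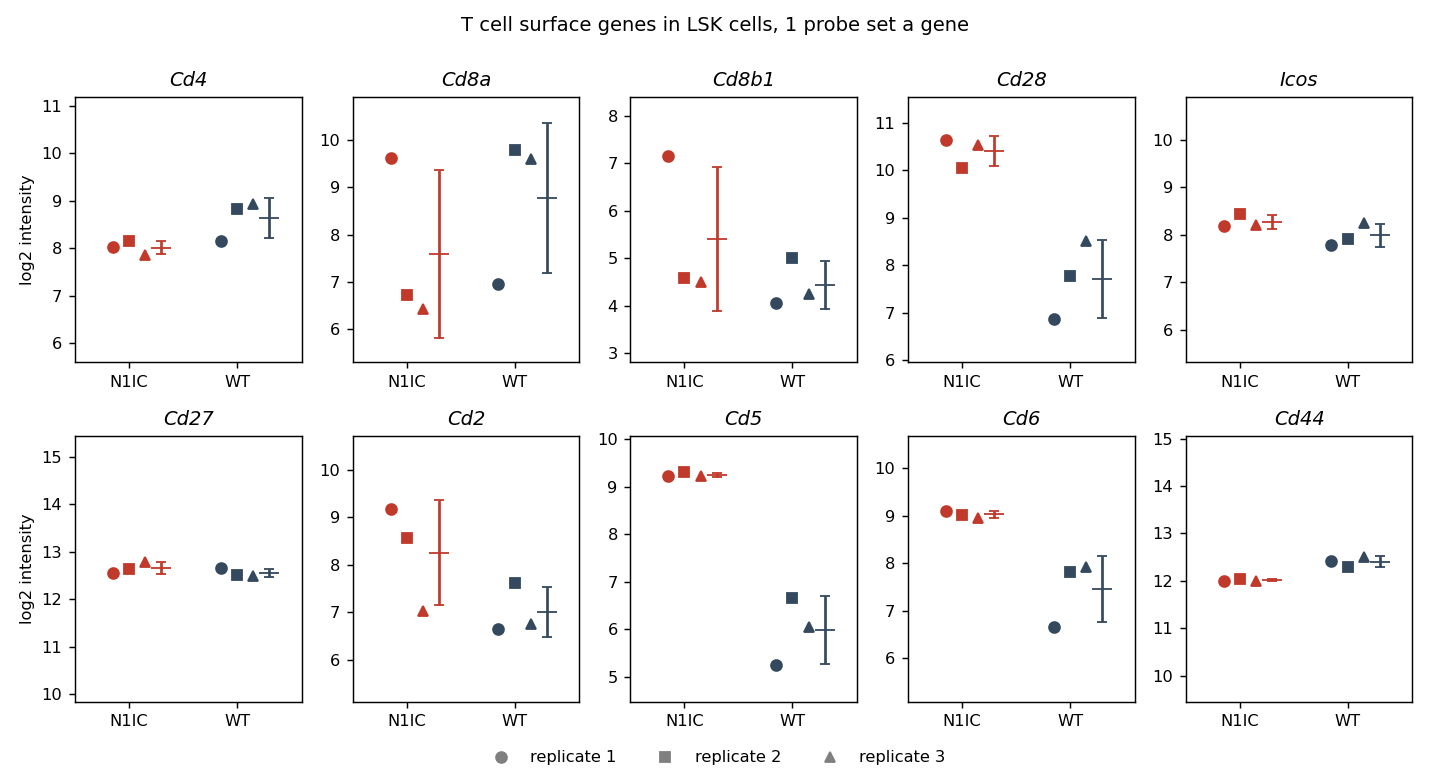
Log2 intensity of the 10 T cell surface genes on the 3 N1IC arrays (left, red) and the 3 WT arrays (right, dark), with mean and SD beside the points. Each panel spans the same number of log2 units; Cd5, Cd28 and Cd6 lie higher on every N1IC array than on any WT array, and Cd8a is split within both groups.

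The clearest change was that of Cd5, a scavenger-receptor-family molecule that dampens T cell receptor signalling. Cd5 stood at 9.24, 9.30 and 9.22 in N1IC replicates 1 to 3, against 5.24, 6.66 and 6.05 in WT replicates 1 to 3. The N1IC arrays were nearly equal, at 9.25 ± 0.04 against 5.98 ± 0.71 in WT (SD, n = 3 each), and the spread lay in WT. Cd5 was 9.65-fold higher in N1IC (log2 fold change 3.27 ± 0.34, SE; limma adjusted p = 0.00391). This call was made under all 19 alternative settings, with log2 fold changes between 2.60 and 3.61. Cd5 was the only gene of the 10 called with sex as a covariate, a fit that sets N1IC against WT replicate 2 alone.

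Cd6, the neighbouring gene on chromosome 19 and a relative of Cd5, encodes a receptor that binds the adhesion molecule ALCAM. No protein-coding gene lies between them in RefSeq. Cd6 stood at 9.10, 9.02 and 8.95 in N1IC, against 6.66, 7.81 and 7.91 in WT. The N1IC arrays again agreed closely and lay at least 1.04 above every WT array. Cd6 was 2.96-fold higher in N1IC (log2 fold change 1.57 ± 0.33, SE; limma adjusted p = 0.0351). Leaving out any single array except WT replicate 1 ended the call (limma adjusted p between 0.0509 and 0.110), as did the fit with sex as a covariate (adjusted p = 0.284).

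The promoter windows of Cd5, called higher, and of Cd44, called lower, are shown for the letters of the DNA word read by RBPJ, the factor that recruits active Notch1, with Cd8a, whose levels split the arrays. RefSeq windows of 250 bases before to 50 after the gene start (GRCm38.p6) matched 4 of the 10 genes, and TGGGAA was searched on both strands. Capitals mark it, as TGGGAA or as its reverse complement TTCCCA. Of 32851 such windows, 25.6% held it. Cd5 lies at chr19:10738925-10739224 (minus strand), Cd44 at chr2:102901616-102901915 (minus strand) and Cd8a at chr6:71373177-71373476 (plus strand).
Cd5: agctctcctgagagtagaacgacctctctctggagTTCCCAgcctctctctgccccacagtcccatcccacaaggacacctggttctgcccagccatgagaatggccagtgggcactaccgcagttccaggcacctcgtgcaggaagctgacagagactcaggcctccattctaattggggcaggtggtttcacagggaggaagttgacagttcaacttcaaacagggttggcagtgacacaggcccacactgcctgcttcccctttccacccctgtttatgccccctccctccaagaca
Cd44: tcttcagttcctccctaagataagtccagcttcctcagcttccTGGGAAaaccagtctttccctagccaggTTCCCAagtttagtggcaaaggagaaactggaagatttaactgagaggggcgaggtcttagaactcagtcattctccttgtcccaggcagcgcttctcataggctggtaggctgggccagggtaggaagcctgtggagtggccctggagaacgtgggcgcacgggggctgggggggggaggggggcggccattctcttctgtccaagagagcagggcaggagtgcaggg
Cd8a: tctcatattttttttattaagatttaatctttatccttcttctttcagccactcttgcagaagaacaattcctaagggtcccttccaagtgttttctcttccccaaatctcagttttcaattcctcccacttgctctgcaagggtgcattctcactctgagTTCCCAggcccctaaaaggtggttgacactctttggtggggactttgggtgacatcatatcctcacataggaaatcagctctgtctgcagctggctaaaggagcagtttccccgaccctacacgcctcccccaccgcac
The word stood 1 time in the windows of Cd5 and Cd8a, 2 times in that of Cd44 and 0 times in that of Cd27. It was thus found beside genes that were called higher, called lower and not called. The E-box pattern CANNTG, read by E proteins, stood 2 times in the window of Cd5, 3 times in that of Cd8a, 5 times in that of Cd27 and 0 times in that of Cd44, with no overlap with TGGGAA. It was held by 72.3% of all windows.

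Among the costimulatory receptors, Cd28 rose and its relative Icos did not pass the test. Cd28 stood at 10.64, 10.04 and 10.53 in N1IC, against 6.86, 7.76 and 8.50 in WT. Every N1IC array lay at least 1.55 above every WT array. Cd28 was 6.49-fold higher in N1IC (log2 fold change 2.70 ± 0.42, SE; limma adjusted p = 0.0130). Its other probe set was 5.31-fold higher, with an adjusted p of 0.0167 by limma over all probe sets. The call of Cd28 was lost without N1IC replicate 1 (adjusted p = 0.0542 by limma) and with sex as a covariate (adjusted p = 0.126).

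Icos, the inducible costimulator of activated T cells, stood at 8.18, 8.44 and 8.19 in N1IC, against 7.78, 7.92 and 8.25 in WT. The groups overlapped, and its log2 fold change of 0.29 had a 95% interval from -0.07 to 0.65. Its other probe sets had log2 fold changes of 0.36 and -0.04, and none of the 3 was called. Cd28 and Icos share a stretch of chromosome 1 with Ctla4, the only protein-coding gene between them in RefSeq. Ctla4, the inhibitory counterpart of Cd28, stood at 8.78, 8.91 and 9.66 in N1IC, against 6.36, 7.38 and 7.54 in WT. It was 4.07-fold higher (limma adjusted p = 0.0240), so that Cd28 and Ctla4 were called higher in this stretch and Icos was not called.

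Cd27, a receptor of the TNF receptor family that is also present on multipotent progenitors, stood at 12.55, 12.64 and 12.78 in N1IC, against 12.65, 12.52 and 12.50 in WT. These values overlapped and spanned 0.29 over all 6 arrays. The log2 fold change of 0.10 had a 95% interval from -0.13 to 0.33.

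**Figure D2:**
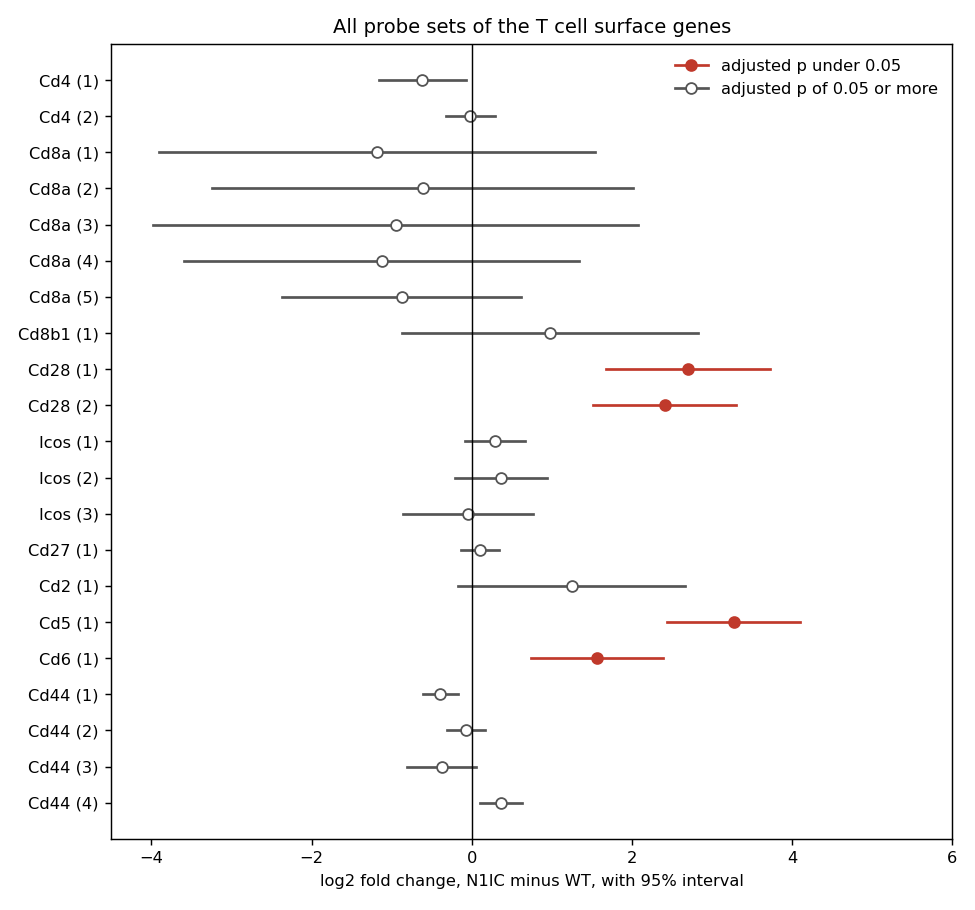
Log2 fold change, N1IC minus WT, of all 21 probe sets of the 10 genes (points) with 95% intervals (lines); the number in brackets orders the probe sets of a gene by mean level. The 4 called probe sets are those of Cd28, Cd5 and Cd6, and the first 4 Cd8a probe sets have the widest intervals.

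Cd2, which binds CD48 in the mouse and aids contact between cells, stood at 9.18, 8.57 and 7.03 in N1IC, against 6.65, 7.61 and 6.76 in WT. N1IC replicates 1 and 2 lay above all WT arrays and N1IC replicate 3 lay among them. Cd2 was not called (log2 fold change 1.25 ± 0.58, SE; limma adjusted p = 0.240). Leaving out N1IC replicate 3 gave 1.86, with a limma adjusted p of 0.0497. The Cd2 ligand Cd48 stood at a log2 fold change of -0.06 and was not called.

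Cd44, the hyaluronan receptor of progenitors and early thymocytes, stood at 12.00, 12.04 and 12.00 in N1IC, against 12.42, 12.28 and 12.51 in WT. The N1IC arrays lay at least 0.24 below the WT arrays. Cd44 was 1.31-fold lower (log2 fold change -0.39 ± 0.09, SE; limma adjusted p = 0.0374), which was a small difference on 1 of 4 probe sets. The other 3 had log2 fold changes of -0.08, -0.37 and 0.37, and the mean of all probe sets gave -0.12 (adjusted p = 0.398 by limma). The fourth probe set, the dimmest, was higher on every N1IC array than on any WT array and was not called. Leaving out any single array except WT replicate 2 ended the call (adjusted p between 0.0852 and 0.113 by limma), and with arrays centred on their medians the adjusted p was 0.0595.

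The coreceptors gave another picture, with no gene called. Cd4 stood at 8.03, 8.14 and 7.86 in N1IC, against 8.14, 8.82 and 8.92 in WT. The highest N1IC value lay only 0.002 below WT replicate 1, while WT replicates 2 and 3 lay clearly higher. The log2 fold change was -0.62 ± 0.22 (SE; limma adjusted p = 0.138), and without WT replicate 1 it was -0.86 with an adjusted p of 0.0137 by limma. A dimmer Cd4 probe set differed by -0.02.

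Cd8a, the alpha chain of CD8, stood at 9.61, 6.73 and 6.43 in N1IC, against 6.95, 9.78 and 9.59 in WT. N1IC replicate 1 and WT replicates 2 and 3 were thus high, and the other 3 arrays were low. Whether these mice differed in strain background cannot be read from the labels. All 5 Cd8a probe sets split the arrays in this way, with a gap of 1.22 to 2.69 between the lowest of the high and the highest of the low arrays. The log2 fold change of -1.18 had a 95% interval from -3.91 to 1.54, wide enough to hold both a clear fall and a clear rise. Adjusted p was between 0.249 and 0.841 by limma over the 19 alternative settings.

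Cd8b1, the beta chain of CD8 and the next gene to Cd8a, stood at 7.16, 4.58 and 4.49 in N1IC, against 4.04, 5.01 and 4.24 in WT. It was high on N1IC replicate 1 alone, and WT replicates 2 and 3, where Cd8a was high, held Cd8b1 close to the remaining arrays. The log2 fold change was 0.98 with a 95% interval from -0.86 to 2.82.

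**Figure D3:**
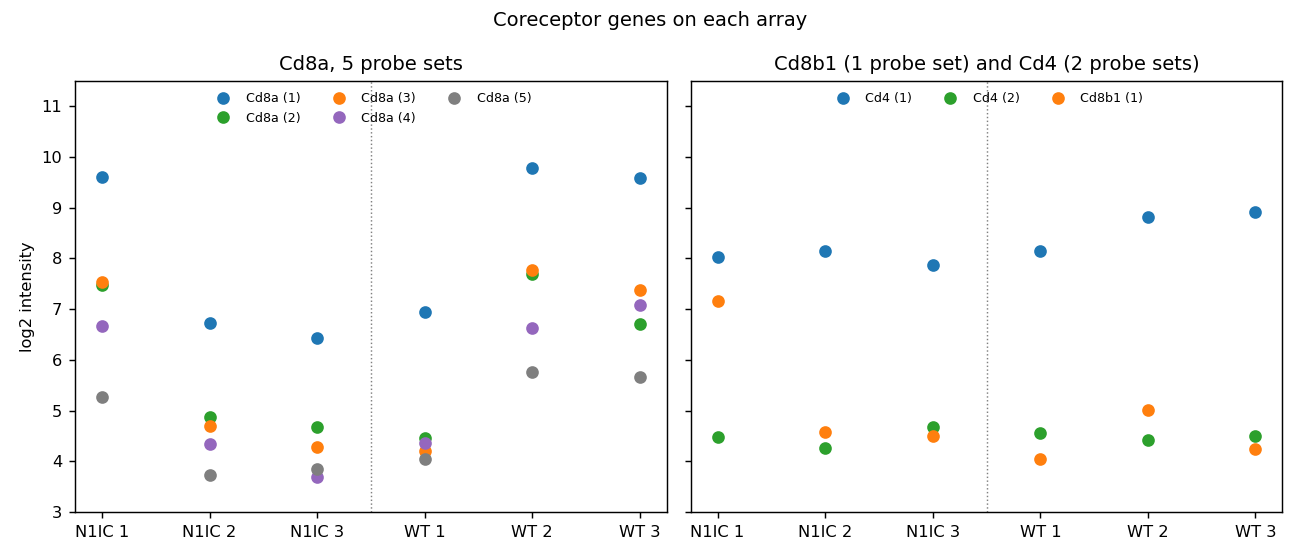
Log2 intensity on each array (N1IC left, WT right) for the 5 probe sets of Cd8a and for the probe sets of Cd8b1 and Cd4, each colour 1 probe set. All 5 Cd8a probe sets are high on N1IC replicate 1 and WT replicates 2 and 3, Cd8b1 is high on N1IC replicate 1, and Cd4 varies little within N1IC.

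Cd8a and Cd8b1 lie side by side on chromosome 6, with no gene between them in RefSeq. Of the 5 measured genes on each side of them, chosen after the values of Cd8a were seen, the range over the 6 arrays was between 0.33 and 1.85, against 3.36 for Cd8a and 3.11 for Cd8b1. The widest was that of Gm1070, called lower, at 4.86, 4.85 and 4.70 in N1IC, against 5.87, 5.99 and 6.54 in WT. It separated the groups and did not follow Cd8a or Cd8b1. Cd4 and Cd27 lie further along the same chromosome with 15 measured genes between them. Of these, 2 were called higher, the chromatin remodeller Chd4 and the peptide-loading factor Tapbpl, where 3.47% of all genes were called higher. Lag3, an inhibitory relative of Cd4, stood at a log2 fold change of -0.06.

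Over 1588 genes with a mean above the median of all genes and a range of at least 1, those most like the coreceptors by Pearson's r over the 6 arrays are given as a description, since all share the same arrays and the groups. For Cd4 these were H2-Oa, Ncam1, Slc46a3, Cadm1 and Unc119, with r between 0.976 and 0.989. For Cd8a they were Aqp1, Cldn13, Fam210b, Sipa1l1 and Hsd17b11, with r between 0.935 and 0.970. For Cd8b1 they were Pklr, Blvrb, Abcb4, Plekha5 and Trgv1, with r between 0.885 and 0.965. Trgv1, a segment of the T cell receptor gamma chain, stood at 11.26, 8.84 and 9.28 in N1IC, against 7.22, 9.49 and 9.04 in WT.

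Markers of other cell types were measured beside these genes. Of all genes, 3.47% were called higher and 8.31% lower. In bulk samples, fewer cells of a type and less RNA per cell cannot be told apart. All 7 measured genes of early T progenitors rose, with Il2ra, the interleukin 2 receptor alpha chain, 113-fold and Gata3, a T-lineage transcription factor, 6.39-fold higher in N1IC. This held with any 1 array left out, with the replicate block and with sex as a covariate. The 7 include Dtx1, used above as a check of the labels, and the Notch receptor Notch3. Both belong to Notch signalling, so their rise does not by itself mark a cell type. Whether active Notch1 acted directly on the other genes of the list, Il2ra and Gata3 among them, was not tested. Their rise does not by itself mark a cell type either. Cd3g is counted both in this list and among the T cell genes. Of 9 measured genes of T cells, 5 rose and 1, the chemokine receptor Ccr7, fell. The CD3 chains Cd3g, Cd3e and Cd3d were 50.3-fold, 21.1-fold and 13.7-fold higher, the adaptor Trat1 9.88-fold and the zeta chain Cd247 5.39-fold (limma adjusted p between 0.00182 and 0.0216). Cd40lg, a ligand of activated helper T cells, was dim on all arrays, between 4.89 and 5.01 in N1IC and between 4.93 and 5.11 in WT. With 1 array left out, 2 to 6 of the 9 were called higher, 2 without N1IC replicate 1 or 2, and 2 with sex as a covariate. The intensities of the 9 summed to 16846 to 22937 on N1IC arrays, against 1645 to 3970 on WT arrays.

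Of 7 measured B cell genes, 4 were called lower, among them the transcription factor Ebf1, 45.6-fold, and the receptor chain Cd79a, 14.7-fold (limma adjusted p = 0.00103 and 0.0011). The same count was found with any 1 array left out, and 3 were lower in the fit with sex. Over the 7 B cell genes the median log2 fold change was -0.77, with 1 positive and 6 negative. Cd22, Pax5 and Ms4a1 were not called, at 0.48, -0.20 and -0.77. Of 7 macrophage genes, 2 were called higher, the complement chains C1qb, 4.03-fold, and C1qc, 3.27-fold (limma adjusted p = 0.0372 and 0.0175). Without WT replicate 2 or WT replicate 3, 0 macrophage genes were called higher. Over the 7 macrophage genes the median log2 fold change was 0.02, with 4 positive and 3 negative, the lowest that of Cd68 at -1.04. Of 8 NK cell genes 1, Nkg7, was called higher (1.29-fold), while 6 of the 8 had negative values and the median was -1.52. The granzyme Gzma stood at 12.45, 13.64 and 13.23 in N1IC, against 6.69, 10.63 and 10.12 in WT. It was not called (limma adjusted p = 0.066). The summed intensity of the 8 was 15797 to 23196 in N1IC, against 8327 to 12825 in WT, with Nkg7 and Gzma the brightest in N1IC. Of 10 plasmacytoid dendritic genes 1, Irf8, was called lower (7.58-fold), and of 9 conventional dendritic genes 1, Xcr1 (7.5-fold). Without WT replicate 1, 4 NK cell, 4 plasmacytoid and 7 conventional dendritic genes were called lower. Of 7 double-positive thymocyte genes 1, Arpp21, was called higher (4.67-fold). RMA gives no value of 0, so no marker is at 0 on any array. The part of these cell types in the rise of Cd5, Cd6 and Cd28 was not tested.

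WT replicate 1 was the lowest WT array for 8 of the 10 genes, all but Cd27 and Cd44, and for 36.7% of all genes. It was also the lowest WT array for 8 of 9 T cell genes, 7 of 8 NK cell genes, 8 of 10 plasmacytoid and 9 of 9 conventional dendritic genes. Without it, the log2 fold changes of Cd5, Cd28 and Cd6 were 2.90, 2.27 and 1.17, each called by limma (adjusted p = 0.00230, 0.0116 and 0.0036). Mouse dendritic cells of some kinds carry CD8 alpha. The summed intensity of the 9 conventional dendritic genes was 11021, 9051 and 11398 in N1IC replicates 1 to 3, against 10886, 35297 and 35435 in WT replicates 1 to 3. The brightest of the 9 were the class II pathway genes Cd74, H2-Ab1 and H2-Aa, which weigh most in this sum. Within WT, Cd8a and the sum were both high on replicates 2 and 3. Of the 9 genes, 3 were highest among N1IC arrays on replicate 1. N1IC replicate 1 held Cd8a at 9.61, and its dendritic sum lay between those of the other N1IC arrays. The T cell sum of N1IC replicate 1, 20717, also lay between those of the other N1IC arrays, and that of 7 double-positive thymocyte genes was 20347, above 18051 and 14365 in N1IC replicates 2 and 3. The double-positive sum lay between 16374 and 21741 in WT. Its brightest genes on N1IC replicate 1 were Dntt, at 12.85, and Satb1, at 12.37. Dntt was brighter in WT, at 13.04, 13.31 and 13.40, and Satb1 had a log2 fold change of 0.02, so this sum is no specific measure of double-positive cells. The part of these cell types in the levels of Cd8a and Cd8b1 was not tested.

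**Figure D4:**
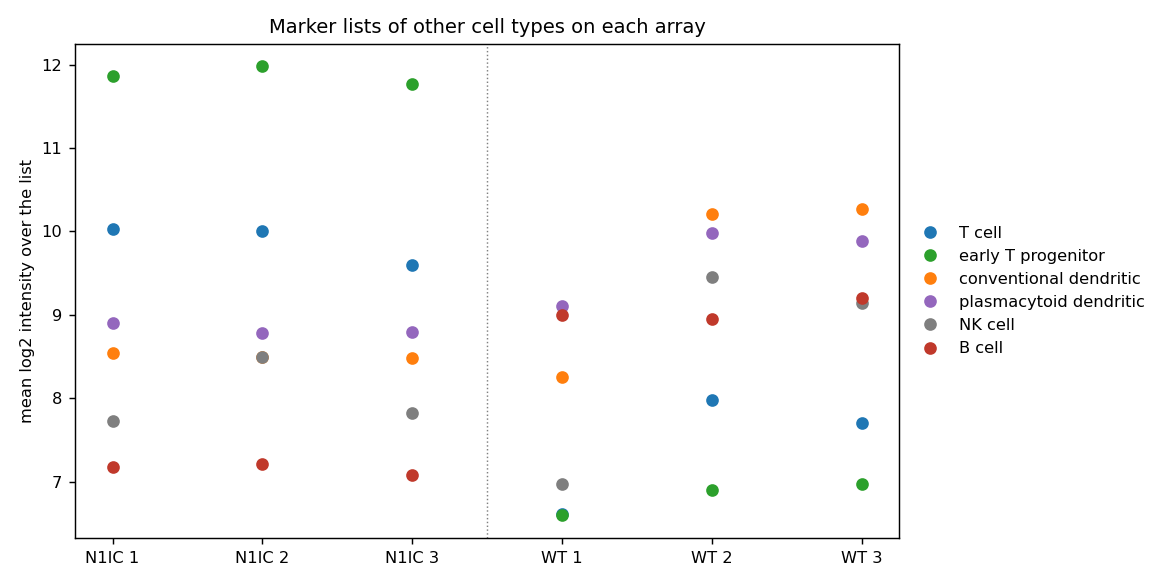
Mean log2 intensity over the measured genes of 6 marker lists on each array (N1IC left, WT right), each colour 1 list. T cell and early T progenitor genes lie higher on all N1IC arrays, B cell genes lie higher on all WT arrays, and dendritic and NK cell genes are lower on WT replicate 1 than on WT replicates 2 and 3.

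Of 15 measured ligands that these receptors meet on other cells, 0 were called higher and 2 lower. Over all genes, 3.47% were called higher and 8.31% lower. At an unadjusted p below 0.05 by limma, 0 of the 15 were higher, and the share of all genes that pass it was not counted. Cd86, a ligand of Cd28 and Ctla4 on antigen-presenting cells, stood at 5.91, 6.11 and 6.30 in N1IC, against 8.00, 9.68 and 9.70 in WT, and was 8.14-fold lower (limma adjusted p = 0.0132). Alcam, the ligand of Cd6, was 1.58-fold lower (adjusted p = 0.0130), at 11.85 ± 0.17 against 12.52 ± 0.04 in WT (SD, n = 3 each). B2m, the light chain of class I, and the class I genes H2-K1 and H2-D1 had log2 fold changes between -0.08 and 0.01. The class II genes H2-Aa and H2-Ab1 stood at -1.22 and -1.24 and were not called, and like Cd86 they were lowest in WT on replicate 1. With 1 array left out, 1 to 4 ligands were called lower, 4 without WT replicate 1 and 1 without N1IC replicate 1. The fit with sex called 0 of them lower.

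Of 13 other costimulatory and inhibitory receptors, 2 rose and 1 fell, where 3.47% of all genes were called higher and 8.31% lower. With 1 array left out, 1 to 2 were higher (1 without N1IC replicate 1, N1IC replicate 3 or WT replicate 2) and 1 to 2 lower (2 without WT replicate 1). The fit with sex called 0 higher and 1 lower. Cd160, an inhibitory or costimulatory receptor that shares the ligand HVEM with Btla, stood at 10.46, 10.85 and 10.74 in N1IC, against 5.72, 7.57 and 7.22 in WT, and was 14.4-fold higher (limma adjusted p = 0.00638). Btla itself stood at 5.52, 5.21 and 5.80 in N1IC, against 8.33, 10.32 and 10.26 in WT, and was 17.4-fold lower (adjusted p = 0.00814). Both receptors of this ligand thus separated the groups, in opposite directions. The other one that rose was Ctla4, described above. Btla and Cd86, like the conventional dendritic genes, were lowest among WT arrays on replicate 1, and the part of dendritic cells in their fall was not tested.

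Of the 9 relatives of Cd2 in the SLAM family, 2 rose and 5 fell, where 3.47% of all genes were called higher and 8.31% lower. Slamf6, a receptor of T and NK cells, rose 6.59-fold (limma adjusted p = 0.000685), at 10.79, 11.18 and 10.95 in N1IC, against 8.00, 8.33 and 8.43 in WT. Cd244a, a receptor for CD48, rose 1.52-fold (adjusted p = 0.0145). Slamf1, the CD150 of stem cells, was 6.28-fold lower (adjusted p = 0.0297), at 8.75, 7.81 and 6.53 in N1IC, against 10.14, 10.33 and 10.57 in WT. Ly9, Slamf7, Slamf8 and Cd84 were 2.02-fold, 4.11-fold, 10.1-fold and 1.52-fold lower (limma adjusted p between 0.00384 and 0.0444). With 1 array left out, 1 to 2 of these genes were higher and 1 to 3 lower, the fewest (1 of each) when WT replicate 2 was the one. The fit with sex gave 1 higher and none lower.

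Inside the cell, 3 of 20 measured binding partners rose and 1 fell, where 3.47% of all genes were called higher and 8.31% lower. Lcp2, the adaptor SLP-76 that binds CD6, rose 1.67-fold (limma adjusted p = 0.0236), and Grap2, an adaptor of CD28, rose 1.91-fold (adjusted p = 0.0480). Ezr, which links CD44 to the actin cytoskeleton, rose 1.72-fold (adjusted p = 0.00732), while the related Rdx and Msn had log2 fold changes of 0.00. Pstpip1, which binds the tail of CD2, was 2.16-fold lower (adjusted p = 0.00780). With 1 array left out, 1 to 3 of the 20 were higher and 1 to 2 lower, with 1 higher and 2 lower without N1IC replicate 1, and with sex as a covariate none was called. Sh2d1a, an adaptor of SLAM receptors, stood at 9.75, 9.92 and 8.96 in N1IC, against 4.64, 7.48 and 7.91 in WT, and was not called with a log2 fold change of 2.87 (adjusted p = 0.0955).

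**Figure D5:**
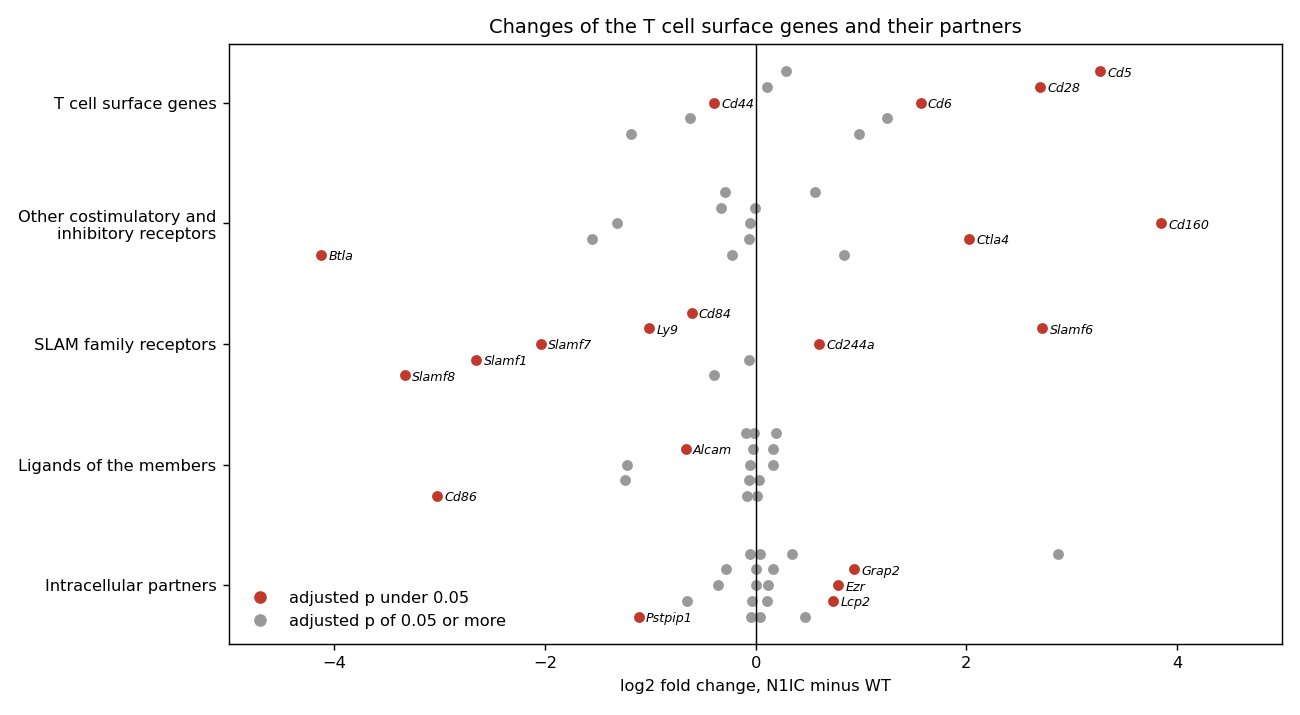
Log2 fold change, N1IC minus WT, of each measured gene in the T cell surface set and in 4 lists of partners, with called genes named and red; rows are spread vertically only for legibility. Cd160 and Btla lie at opposite ends of the receptor list, and Cd86 is the lowest of the ligands.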

How the data were processed

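Expression was measured in 6 samples, 3 N1IC and 3 WT, with 1 Affymetrix array each. The deposited values are linear RMA intensities per probe set, made by the authors, per the submitters' processing notes, which give no version. Per the labels' protocols, the Nugen Ovation system amplified 5 ng of total RNA; spread from amplification and spread between mice cannot be told apart. Scanner files and detection calls were not analysed here, so no gene is called absent.

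Log2 of the deposited intensity was taken with no offset. Of 45101 probe sets, 64 controls were left out, and 34945 had 1 gene symbol, of which 34741 were updated by gene ID through RefSeq (GRCm38.p6). Each of 18193 genes was represented by its probe set with the highest mean. The groups were tested two-sided without covariates in limma (version 3.58.1; R 4.3.3) by lmFit and eBayes, adjusted by Benjamini-Hochberg, with 4 residual degrees of freedom. The fit was tested on simulated data.

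Members and lists were chosen with earlier results of these data known, so no p was adjusted over a list. The genes named come from all members, the check genes, genes between members and the 5 genes most like each coreceptor. From each list they are up to 6 called genes by smallest p or, where fewer than 3 were called, the brightest up to 3. Not every gene that this rule admits is named. Kit, the gene of the gate, was named outside this rule. Cd40lg, Cd48, Slamf8, H2-K1, H2-D1, H2-Aa, H2-Ab1, Sh2d1a, Rdx, Msn and Gm1070 fall outside this rule and were chosen after their values were seen. The same holds for Cd22, Pax5 and Ms4a1. Lck and Ly6a were not analysed here. The alternatives tried were the replicate block, sex, normalization, filter, offset, probe set choice, variance prior, array weights, threshold and leaving out each array.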

Additional observations from a re-analysis of the deposited data

How the results depend on the processing

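The design text sets N1IC mice against WT littermates. In the sample titles, WT replicates 1 and 2 carry the letter b after the number, while WT replicate 3 and the N1IC replicates carry none. The correlation of deviations from the group means was -0.09, -0.07 and 0.07 for replicates 1, 2 and 3. These values show no shared shift by replicate number, but with 3 arrays a group they cannot settle whether the numbers pair the samples. With the replicate block, 2 of the 10 surface genes were higher (Cd5 and Cd28) and 0 lower, and over all genes 357 were higher and 936 lower, against 632 and 1512 without it; 1 member probe set was higher. With sex as a covariate 1 surface gene was higher and 0 lower, 1 member probe set was higher, and over all genes 116 were higher and 333 lower; this fit sets N1IC against 1 WT array, so it does not measure an effect of sex. At a threshold of 0.01 the surface genes gave 1 higher and 0 lower, the member probe sets 1 higher, and all genes 209 and 536; at 0.1, 1038 of all genes were higher and 1 member probe set was lower. Cd44 lost its call, leaving 0 lower, with median centring, the mean of all probe sets and each probe set on its own. Of the 21 member probe sets, 1 was called lower after a repeated quantile normalization, with only the brighter 60% of probe sets, with log2(value + 16) and with an intensity trend. With 1 array left out, 1 to 3 surface genes were higher and 0 to 1 lower, 1 to 4 member probe sets higher and 0 to 1 lower, and 332 to 509 of all genes higher and 835 to 1420 lower. Over all surface genes and settings no log2 fold change changed sign, 165 kept their side of the threshold, 22 lost a call and 2 gained one. The brighter 60% of genes gave no value for Cd8b1. Signal over background was not measured here, so dim values, such as those of Cd8b1, cannot be told from background.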

Other observations

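Cd8a and Cd8b1 were among 10 of 18193 genes (0.055%) that lay at least 2 log2 units higher on N1IC replicate 1 than on the higher of N1IC replicates 2 and 3, by 2.89 and 2.58. The other 8, named after their values were seen, were Slc5a9, Elavl4, Gpx7 and Rimkla, all on chromosome 4, and Tmem87a, Itln1, Ifi202b and Cmah. The share of all genes that lie on chromosome 4 was not counted, so this shared chromosome has no background to be set against. Tmem87a, a Golgi membrane protein, stood at 11.29, 7.87 and 7.36 in N1IC, against 11.08, 6.90 and 11.13 in WT. Elavl4, an RNA-binding protein of neurons, stood at 7.41, 3.99 and 3.87 in N1IC, against 3.99, 3.92 and 7.57 in WT. Ifi202b, an interferon-inducible DNA sensor, stood at 7.33, 5.11 and 4.73 in N1IC, against 4.75, 8.61 and 8.15 in WT, high on the same 3 arrays as Cd8a. Of these 10 genes, 5 also ranged over at least 2 log2 units among the WT arrays.

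In WT, 135 genes (0.742% of 18193) lay at least 2 log2 units lower on replicate 1 than on the lower of replicates 2 and 3, and Cd8a was among them with a gap of 2.64. The gaps of Cd6, Cd28, Cd5 and Cd4 were 1.14, 0.90, 0.81 and 0.68.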
